A study of Mus musculus with 18 samples.

Results

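The enzymes described here conjugate small molecules in liver: 7 UDP-glycosyltransferases (UGTs: Ugt1a1, Ugt2a3, Ugt2b1, Ugt2b5, Ugt2b34, Ugt2b36 and Ugt3a1) and 3 cytosolic sulfotransferases (SULTs: Sult1a1, Sult1d1 and Sult2a8). These 10 genes were taken by name from a liver table of 16245 genes, in which 34 genes carry a Ugt or Sult symbol followed by a number. Total RNA was sequenced from the livers of wild-type male C57BL/6 mice kept from 8 weeks of age at about 29 °C on a diet rich in fat, fructose and cholesterol that produces steatohepatitis, conditions that the controls shared. The 6 mice of the GDF15 group received recombinant GDF15, a stress hormone that lowers appetite, under the skin once a day. The 6 vehicle mice received the carrier without the hormone, and the 6 pair-fed mice were offered each day what the GDF15 mice had eaten the day before. The protocol names doses of 0.3, 1 and 5 nmol/kg, and the sample labels do not say which dose a GDF15 liver received. Comparison of GDF15 with pair-fed livers addresses what GDF15 does beyond the smaller meal.

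Conjugation attaches a large polar group to a lipid-soluble molecule, so that bilirubin, steroids, bile acids, thyroid hormone and drugs can be carried into bile or urine. UGTs sit in the endoplasmic reticulum and mostly transfer glucuronic acid from UDP-glucuronic acid, whereas SULTs work in the cytosol with the sulfate donor PAPS. Hepatocytes are the main site of both reactions.

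All 10 genes were placed on the mouse build GRCm38.p6 from RefSeq. Ugt2b34 (chr5:86889770-86906937), Ugt2b1 (chr5:86916639-86926503), Ugt2b36 (chr5:87065927-87092555), Ugt2b5 (chr5:87124946-87140340) and Ugt2a3 (chr5:87324972-87337195) lie in a row on the minus strand of chromosome 5, and Sult1d1 (chr5:87554650-87569006) lies beyond them on the same strand. Ugt1a1 is on the plus strand of chromosome 1 (chr1:88211959-88220002) and Ugt3a1 on the plus strand of chromosome 15 (chr15:9279822-9315038). Sult2a8 (chr7:14410686-14446780) and Sult1a1 (chr7:126672865-126690443) are on the minus strand of chromosome 7.

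The sequences just before the start sites were searched for 5 short motifs. The letters GTTAAT, on either strand, were found in the 250 bases before the start of 5 of the 10 genes (Ugt1a1, Ugt2a3, Ugt3a1, Sult1a1 and Sult1d1) and in 6.43% of 32851 such windows over all RefSeq starts. The start of Sult1a1 used here lies inside the gene, with its 250 bases ending at 126676419 against an outer bound of 126690443. The nuclear receptor half-site AGGTCA was found before 3 of them (Ugt2b5, Ugt2b36 and the start of Sult2a8 that lies farther inside the gene), against 14.0% of all windows. The longer letters CAAAGTCCA of an HNF4 type site (0.384% of all windows) and TGACNNNGC of an NRF2 element (10.2%) were before none of the 10, and GCGTG, the core bound by the aryl hydrocarbon receptor, was before 1, Sult1d1, against 28.2%. The letters of the NRF2 element can overlap AGGTCA on the opposite strand. A match is only a string of letters and was not tested as a binding site. The 130 bases before the start are printed for 4 genes with GTTAAT inside these bases (the start of Ugt3a1 used here lies a few bases inside its outer bound), for the neighbours Ugt2b5 and Ugt2b36, and for Sult2a8, 5′ to 3′ on the gene's own strand, with GTTAAT (or its reverse complement) and AGGTCA in capitals.
Ugt1a1, chr1:88211829-88211958, plus strand: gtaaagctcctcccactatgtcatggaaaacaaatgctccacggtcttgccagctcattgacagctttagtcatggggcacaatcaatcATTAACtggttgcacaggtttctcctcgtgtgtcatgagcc
Ugt2a3, chr5:87337196-87337325, minus strand: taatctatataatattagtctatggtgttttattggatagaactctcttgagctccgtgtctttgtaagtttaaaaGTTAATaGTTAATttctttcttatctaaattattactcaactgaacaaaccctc
Ugt3a1, chr15:9279699-9279828, plus strand: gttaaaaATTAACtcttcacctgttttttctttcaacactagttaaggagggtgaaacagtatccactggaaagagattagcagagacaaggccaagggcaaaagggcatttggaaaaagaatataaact
Sult1d1, chr5:87569007-87569136, minus strand: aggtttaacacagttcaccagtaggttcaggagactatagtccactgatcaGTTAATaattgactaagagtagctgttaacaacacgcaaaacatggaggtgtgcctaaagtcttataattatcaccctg
Ugt2b5, chr5:87140341-87140470, minus strand: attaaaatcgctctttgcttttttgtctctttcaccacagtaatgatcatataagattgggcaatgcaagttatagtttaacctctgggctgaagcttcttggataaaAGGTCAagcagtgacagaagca
Ugt2b36, chr5:87092556-87092685, minus strand: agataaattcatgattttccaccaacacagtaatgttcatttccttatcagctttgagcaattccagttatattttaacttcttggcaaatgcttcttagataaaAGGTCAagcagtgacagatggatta
Sult2a8, chr7:14438552-14438681, minus strand: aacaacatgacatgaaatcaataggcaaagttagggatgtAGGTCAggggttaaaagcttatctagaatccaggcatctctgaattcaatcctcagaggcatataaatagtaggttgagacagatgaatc
Ugt2a3 holds GTTAAT at both 54 and 47 bases before its start, and Ugt1a1 holds it at 41. In Ugt2b5 and Ugt2b36, AGGTCA begins 22 and 25 bases before the start, inside a run of 24 bases that the pair share without a mismatch. Other pairs were not searched for such a run.

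Library totals ran from 16508864 to 35301853 counts, so the members, whose group means lay between 1719 and 14313 normalized counts, were far above the counting limit, and the spread between mice set the error. Sampling noise alone did not account for the difference between any pair of libraries within a group. This check cannot show that a pair came from different mice, and each library was taken as a separate mouse from its title. Hepatocyte markers had the highest sum of the cell type marker lists in every library. Alb, Apoa1, Ttr, Cps1 and Hnf4a summed to between 1208000 and 2232000 normalized counts. Of 4 intestinal epithelium markers, 1 (Fabp2) had a row. Since these are bulk livers, fewer cells of a type and less RNA per cell cannot be told apart. GDF15 replicate 4 was the lowest of its group for 8 of the 10 genes. The number of genes called in GDF15 against vehicle was 7 with or without that library, and in GDF15 against pair-fed 5 with it and 6 without it.

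Per length of transcript, Ugt2b5 and Ugt2b36 were the most abundant of the 10 in vehicle liver. Counts per kilobase of transcript per 1000000 library counts were 339 ± 19.6 (SD, n = 6) for Ugt2b5, 304 ± 19.0 for Ugt2b36, 258 ± 32.6 for Ugt1a1, which makes bilirubin glucuronide, and 189 ± 14.4 for Sult1a1, the main phenol sulfotransferase. Ugt2b34 followed at 94.9 ± 5.55, Sult2a8 at 84.8 ± 40.1 and Ugt2b1 at 79.4 ± 11.2. Ugt2a3 stood at 62.7 ± 8.44, Sult1d1 at 40.9 ± 7.12 and Ugt3a1 at 39.9 ± 4.55. In this order Ugt2b34 was not separated from Sult2a8, nor Sult2a8 from Ugt2b1, since each was above the next in 4 of 6 vehicle livers. Sult1d1 was above Ugt3a1 in only 2 of 6. Ugt2b36 was above Ugt1a1 in 5 of 6 vehicle livers and in 2 of 6 GDF15 livers. In GDF15 liver Sult2a8, at 229 ± 39.8, was above Ugt2b34 in 6 of 6.

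**Figure D1:**
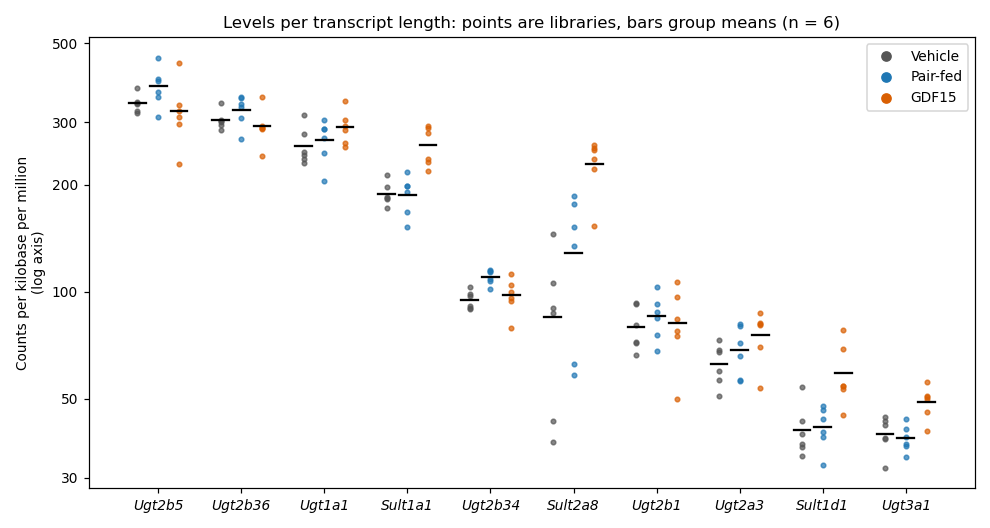
Counts per kilobase of the longest coding transcript per 1000000 library counts (log axis) for the 10 genes, ordered by vehicle mean, in vehicle, pair-fed and GDF15 livers; points are libraries and bars are group means (n = 6). Sult2a8 moves from 84.8 in vehicle to 229 in GDF15 liver, whereas Ugt2b5 stays the most abundant gene on average in each group.

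GDF15 against vehicle asks what the hormone does together with the fall in food intake. Of the 10 genes, 7 rose (Sult2a8, Sult1d1, Sult1a1, Ugt3a1, Ugt2a3, Ugt1a1 and Ugt2b34) and 0 fell at a DESeq2 adjusted p under 0.05, with 10 of the 10 log2 fold changes above 0. Over all 14667 genes tested, 15.8% were higher and 17.5% lower by this rule. The median log2 fold change was 0.39 over the 10 genes and 0.00 over all genes tested. The 3 SULTs had a median of 0.69 and the 7 UGTs of 0.21. By the rule that also asks for more than a doubling (a log2 fold change above 1), Sult2a8 alone was called, beside 0.900% of all genes higher and 5.37% lower. In 3 of the 10 genes (Ugt3a1, Sult1a1 and Sult2a8) all GDF15 livers lay above all vehicle livers, which held for 5.75% of all genes tested.

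Against pair-fed liver, which matches the meals, 5 of the 10 rose (Sult2a8, Sult1d1, Sult1a1, Ugt3a1 and Ugt1a1) and 0 fell. Without pair-fed replicate 2 the count was 3, with Sult2a8 and Ugt1a1 lost, and when libraries were scaled by their total counts 4 rose and 1, Ugt2b34, fell. The background was 13.3% higher and 13.8% lower over 14353 genes tested. The median log2 fold change was 0.29 over the 10 genes, 0.66 over the SULTs and 0.10 over the UGTs, and none of the 10 passed a log2 fold change of 1, beside 0.627% of genes higher and 2.75% lower by that rule. Both comparisons use the same 6 GDF15 livers and are not independent. All GDF15 livers lay above all pair-fed livers for Ugt3a1, Sult1a1 and Sult1d1, and this was so for 4.86% of all genes tested.

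Pair-fed against vehicle liver asks what the smaller meal does alone. None of the 10 genes was called, by DESeq2 or by edgeR, and neither was any gene of the whole table (0%). At an unadjusted p under 0.05, DESeq2 counted 718 genes in the whole table and edgeR 620. Among the 10, DESeq2 counted 1 at that unadjusted level, Ugt2b34.

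**Figure D2:**
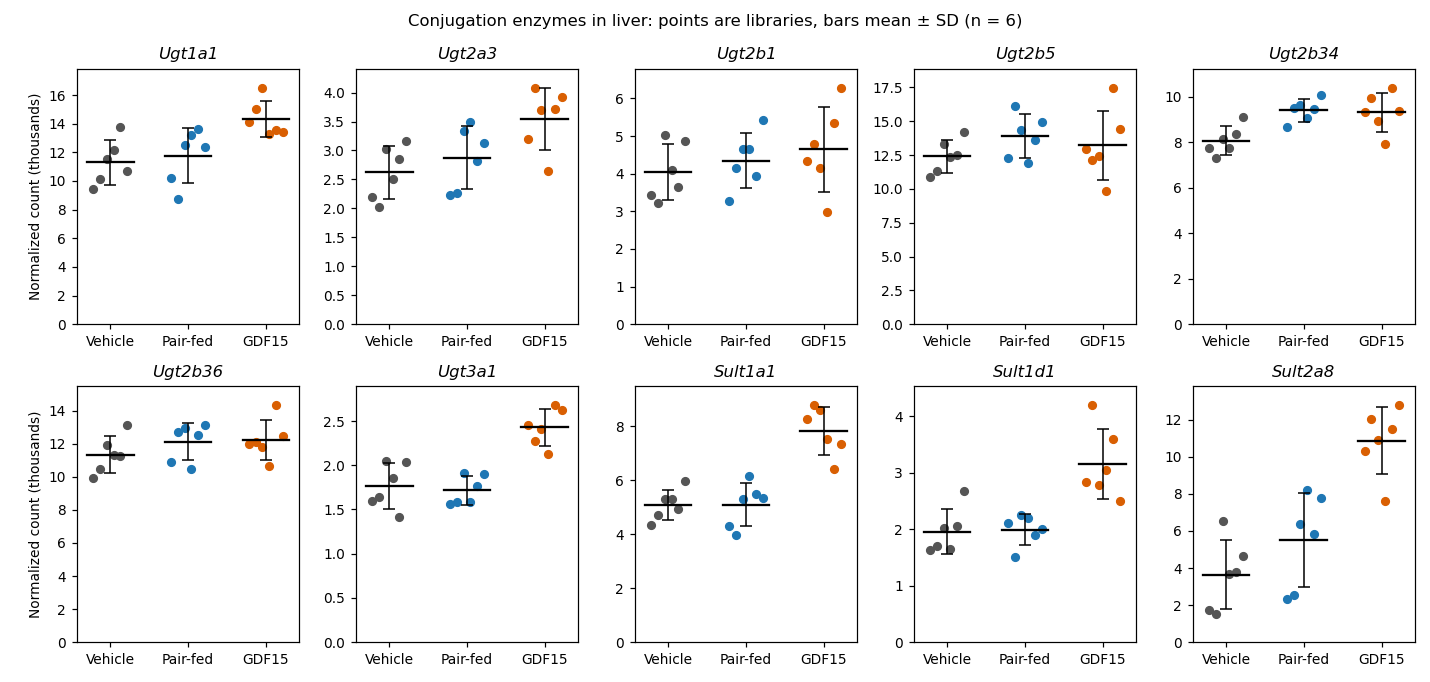
Normalized counts (in units of 1000, median-of-ratios scaling) of the 10 genes in vehicle, pair-fed and GDF15 livers; points are libraries, in order of replicate number within a group, and bars are mean ± SD (n = 6). Ugt3a1 and Sult1a1 in GDF15 liver sit above every liver of both other groups. Ugt1a1, Ugt2a3, Ugt2b1, Ugt2b5, Ugt2b34 and Ugt2b36 overlap between GDF15 and each other group.

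The SULTs showed the larger increases. Sult2a8, which in mouse liver sulfates bile acids, ranged in vehicle liver from 1528 to 6532 normalized counts (median 3734), in pair-fed liver from 2343 to 8200 (median 6090) and in GDF15 liver from 7624 to 12779 (median 11225). The lowest GDF15 liver was above every vehicle liver, and 5 of 6 GDF15 livers were above every pair-fed liver. It was 2.98-fold higher in GDF15 than in vehicle liver (log2 fold change 1.58 ± 0.34 SE, adjusted p = 4.54e-05) and 1.97-fold higher than in pair-fed liver (0.98 ± 0.34, adjusted p = 0.0191). Pair-fed liver was not separated from vehicle (0.60 ± 0.34, adjusted p = 0.998, with a 95% interval from -0.07 to 1.27).

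Sult2a8 was also the most variable of the 10 genes, with an SD of 51.4% of the mean in vehicle, 45.8% in pair-fed and 16.6% in GDF15 liver. Replicates 1 and 2 were low in both control groups, at 1712 and 1528 in vehicle and at 2343 and 2571 in pair-fed liver. With replicates 4 to 6 alone, pair-fed liver was higher than vehicle (log2 fold change 0.85, adjusted p = 0.0143). With replicates 1 to 3 alone the call was lost against vehicle (1.77, adjusted p = 0.0605) and against pair-fed (1.57, adjusted p = 0.101), and without pair-fed replicate 2 the call against pair-fed was lost (0.83, adjusted p = 0.0812).

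Sult1a1 ranged from 4354 to 5973 normalized counts in vehicle liver (median 5122), from 3991 to 6157 in pair-fed liver (median 5331) and from 6424 to 8782 in GDF15 liver (median 7909). No GDF15 liver overlapped either other group. The rise was 1.54-fold against both, with log2 fold changes of 0.62 ± 0.11 (adjusted p = 2.05e-07) against vehicle and 0.62 ± 0.11 (adjusted p = 3.14e-07) against pair-fed. Pair-fed and vehicle means were 5100 and 5099 (log2 fold change 0.00 ± 0.11).

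Sult1d1, known for sulfating catecholamines, ranged from 1635 to 2674 in vehicle liver (median 1857), from 1503 to 2256 in pair-fed liver (median 2058) and from 2501 to 4192 in GDF15 liver (median 2948). GDF15 replicate 6 was the 1 GDF15 liver that was not above all vehicle livers, of which replicate 6 was the highest. The log2 fold changes were 0.69 ± 0.14 (adjusted p = 1.27e-05) against vehicle and 0.66 ± 0.14 (adjusted p = 4.30e-05) against pair-fed. Of the normalized counts of the 10 genes, the 3 SULTs together took 14.5% to 20.2% in vehicle liver, 12.8% to 23.3% in pair-fed and 24.2% to 29.3% in GDF15 liver. The lowest GDF15 liver was thus above the highest of both other groups.

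**Figure D3:**
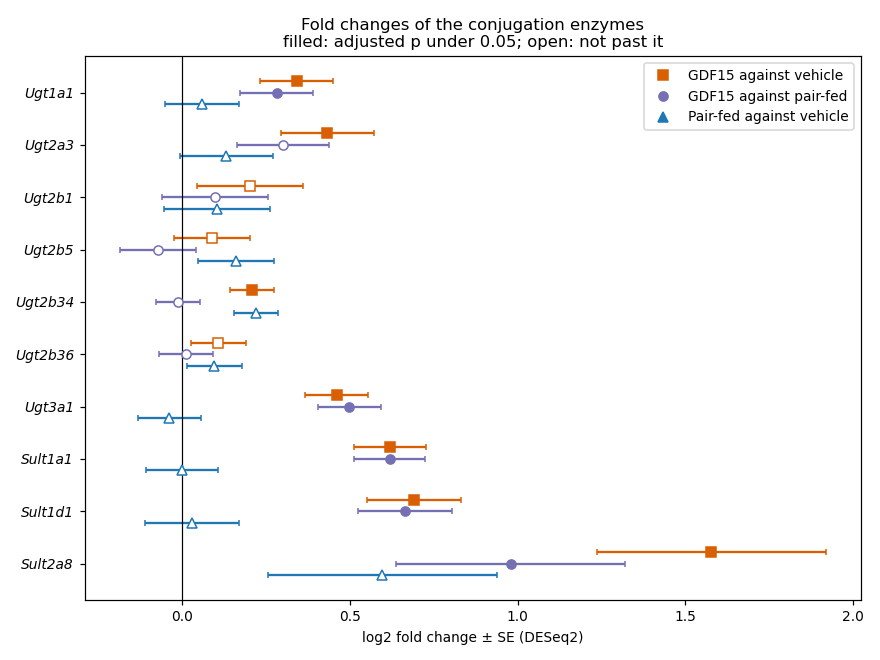
log2 fold change ± SE from DESeq2 for the 10 genes in GDF15 against vehicle (squares), GDF15 against pair-fed (circles) and pair-fed against vehicle (triangles); filled symbols passed an adjusted p of 0.05 and open ones did not. Both GDF15 symbols are filled for Ugt1a1, Ugt3a1 and the 3 SULTs, and no pair-fed against vehicle symbol is filled.

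Among the 7 UGTs of the 10 genes, Ugt3a1 moved the most firmly. It belongs to the UGT3 family, whose human counterpart transfers N-acetylglucosamine in place of glucuronic acid. Normalized counts ran from 1412 to 2045 in vehicle liver (median 1747), from 1563 to 1918 in pair-fed liver (median 1677) and from 2122 to 2677 in GDF15 liver (median 2435). The GDF15 livers overlapped neither other group. The log2 fold changes were 0.46 ± 0.09 (adjusted p = 1.32e-05) against vehicle and 0.50 ± 0.09 (adjusted p = 2.91e-06) against pair-fed.

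Ugt1a1, the bilirubin enzyme, ranged from 9451 to 13800 in vehicle liver (median 11118), from 8729 to 13638 in pair-fed liver (median 12417) and from 13270 to 16523 in GDF15 liver (median 13849). Of the 6 GDF15 livers, 3 lay above all vehicle livers and 3 above all pair-fed livers. The log2 fold change was 0.34 ± 0.11 (adjusted p = 0.00807) against vehicle and 0.28 ± 0.11 (adjusted p = 0.0382) against pair-fed. The second call was lost with edgeR (adjusted p = 0.0564), with replicates 4 to 6 alone (0.04, adjusted p = 0.832) and without any 1 of GDF15 replicates 1, 2 or 3 or pair-fed replicates 1 or 2, where the adjusted p ran from 0.0567 to 0.106. With replicates 4 to 6 alone the call against vehicle was lost too (0.13, adjusted p = 0.391).

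The genes of the Ugt1a cluster have their own first exon and share the rest, and 58.5% of the 31-base words of the longest Ugt1a1 transcript also occur in another Ugt1a transcript. Counts of Ugt1a1 therefore rest partly on how the authors' quantifier divided shared reads. When the 8 Ugt1a rows were summed, the log2 fold change was 0.18 ± 0.08 against vehicle and 0.11 ± 0.08 against pair-fed. Ugt1a1 held 47.9% ± 4.01 of the summed Ugt1a counts in vehicle, 47.4% ± 3.07 in pair-fed and 53.6% ± 1.44 in GDF15 liver. Ugt1a9 fell against pair-fed liver by 0.90 ± 0.28 on the log2 scale (adjusted p = 0.00779), while Ugt1a6a (-0.09 and -0.03 against vehicle and pair-fed) and Ugt1a6b (-0.11 and -0.02) were not called. When libraries were scaled by total counts, both were lower in both comparisons (Ugt1a6a at -0.26 and -0.19, Ugt1a6b at -0.28 and -0.18).

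Ugt2a3, a UGT2 enzyme encoded beside the Ugt2b genes, ranged from 2023 to 3156 in vehicle liver (median 2680), from 2233 to 3490 in pair-fed liver (median 2969) and from 2639 to 4087 in GDF15 liver (median 3712). It rose against vehicle (0.43 ± 0.14, adjusted p = 0.00812), with 5 of 6 GDF15 livers above all vehicle livers. Against pair-fed the log2 fold change was 0.30 ± 0.14 (adjusted p = 0.0888), and without GDF15 replicate 4 or pair-fed replicate 4 it was 0.37 (adjusted p = 0.0248) and 0.36 (adjusted p = 0.0381). With replicates 4 to 6 alone the call against vehicle was lost (0.27, adjusted p = 0.239).

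The 4 Ugt2b genes, whose enzymes handle steroids and many drugs, moved little. Ugt2b34 was at 7297 to 9116 normalized counts in vehicle liver (median 7938), 8648 to 10076 in pair-fed liver (median 9480) and 7931 to 10396 in GDF15 liver (median 9330). It rose against vehicle by 0.21 ± 0.07 (adjusted p = 0.00763), and the same size of difference stood between pair-fed and vehicle liver (0.22 ± 0.07, unadjusted p = 0.000818, adjusted p = 0.808). GDF15 and pair-fed livers differed by -0.01 ± 0.07, with a 95% interval from -0.14 to 0.12. With replicates 4 to 6 alone the call against vehicle was lost (0.13, adjusted p = 0.458).

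Ugt2b1 ranged from 3211 to 5020 in vehicle liver, 3277 to 5432 in pair-fed liver and 2987 to 6291 in GDF15 liver, and was not called (0.20 ± 0.16 against vehicle, 95% interval -0.11 to 0.51). Ugt2b5 ranged from 10906 to 14176, 11916 to 16147 and 9876 to 17487 in the same order, with a log2 fold change of 0.09 ± 0.11 against vehicle (95% interval -0.13 to 0.31). Ugt2b36 ranged from 9944 to 13135, 10497 to 13110 and 10625 to 14320, with 0.11 ± 0.08 (95% interval -0.05 to 0.27). All 3 overlapped between every pair of groups. GDF15 replicate 4 was the lowest GDF15 liver for all of Ugt2b1, Ugt2b5, Ugt2b34 and Ugt2b36. GDF15 replicate 5 was the highest for Ugt2b5, Ugt2b34 and Ugt2b36.

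Of the 31-base words of Ugt2b5, 44.9% also occur in Ugt2b38 and 26.4% in Ugt2b37, so that its count is likewise uncertain. Ugt3a1 shares 21.9% of its words, 20.1% with Ugt3a2, and its count carries the same limit. Ugt2b36 shares 13.5%, Sult1a1 10.7%, Ugt2a3 8.05%, Ugt2b34 2.97% and Ugt2b1 0.826%, whereas Sult1d1 and Sult2a8 share none with another gene. The 7 Ugt2b rows summed gave 0.09 ± 0.09 against vehicle and -0.06 ± 0.09 against pair-fed. The 5 Sult1 rows summed gave 0.60 ± 0.10 and 0.58 ± 0.10.

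Total counts in place of median-of-ratios scaling lowered the median of all genes by 0.17 (log2) against vehicle and by 0.16 against pair-fed, and the share of calls that were higher went from 47.6% to 12.7% and from 49.1% to 12.4%. Albumin mRNA alone took 6.24% ± 0.352 of the library in vehicle, 6.23% ± 1.06 in pair-fed and 7.42% ± 0.341 in GDF15 liver. Its part in these shifts was not tested. On this scale 4 of the 10 genes stayed called against vehicle, the 3 SULTs and Ugt3a1, and Ugt1a1 (0.17, adjusted p = 0.176), Ugt2a3 (0.27, adjusted p = 0.0762) and Ugt2b34 (0.04, adjusted p = 0.690) did not. Against pair-fed, the same 4 rose, Ugt1a1 did not (0.12, adjusted p = 0.356) and Ugt2b34 fell by 0.17 (adjusted p = 0.0386).

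Likeness over the 18 livers was measured as Pearson's r of log2 normalized counts, as a description. Livers of 3 groups share treatment, so such values mix group differences with mouse-to-mouse variation. Within the 10 genes, Ugt2a3 and Sult2a8 ran most closely together (r = 0.93, and 0.90 after each group's mean was removed). Ugt2b5 and Ugt2b36 followed (0.90 and 0.92). Sult1a1 and Sult1d1 were at 0.83, which dropped to 0.47 with group means removed. Outside the lists, Sult2a8 was most like Cyp2c54, a cytochrome P450 (r = 0.98), and Slc10a1, the bile acid uptake carrier NTCP (0.97), and Sult1a1 was most like Ahcy, which hydrolyses S-adenosylhomocysteine (0.96), and Ndrg2 (0.96). Ugt3a1 was closest to Cyp2c23 (0.94) and Ddi2 (0.93), Ugt1a1 to Abcg8, a subunit of the biliary sterol exporter (0.94), and Eif4b (0.93), and Sult1d1 to Zfp398 (0.93). Ugt2a3 was close to Abhd18 (0.95), Ugt2b1 to Bdh2 (0.87) and Cyp2d9 (0.86), Ugt2b5 to Zfp982 (0.89) and Colec10 (0.82), Ugt2b34 to Vipr1 (0.87) and Necab1 (0.83), and Ugt2b36 to Necab1 (0.82) and Opa1 (0.82).

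The rest of the conjugation machinery was read from lists of other transferases, donor supply, deconjugation, transport and regulators, with 62 symbols of which 52 had a row. Against vehicle 13 of these rose and 10 fell, and against pair-fed 8 rose and 9 fell, at the same backgrounds of 15.8% and 17.5%, and 13.3% and 13.8%. On total counts the split was 5 higher and 16 lower against vehicle and 3 and 18 against pair-fed. Over the whole table that scale gave 722 genes higher and 4946 lower against vehicle, and 626 and 4439 against pair-fed. No list gene was called in pair-fed against vehicle liver by DESeq2 or edgeR. DESeq2 also found 0 of them at an unadjusted p under 0.05.

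Of 5 genes that supply UDP-glucuronic acid, 3 fell in both comparisons (Ugdh, Ugp2 and Pgm2). Ugdh, which oxidizes UDP-glucose to UDP-glucuronic acid, was at 5280 to 6489 normalized counts in vehicle, 4515 to 7809 in pair-fed and 3233 to 4827 in GDF15 liver. The GDF15 livers were all below the vehicle livers and overlapped the pair-fed ones. Ugdh fell by 0.61 ± 0.11 (adjusted p = 7.44e-07) on the log2 scale against vehicle and by 0.69 ± 0.11 (adjusted p = 3.29e-08) against pair-fed. Ugp2, which makes UDP-glucose and had the highest mean count of the list (not corrected for length), fell by 0.29 ± 0.09 and by 0.35 ± 0.09 (adjusted p = 0.00672 and 0.00131). Pgm2, a phosphoglucomutase with a mean of 134.5 normalized counts, fell by 0.67 ± 0.12 and by 0.59 ± 0.12. Pgm1, a phosphoglucomutase with a mean of 5608, was higher against vehicle by 0.16 ± 0.06 (adjusted p = 0.0297), a direction that turned on total counts (-0.01). Slc35d1, which carries UDP-glucuronic acid into the endoplasmic reticulum, was not called (-0.06 and -0.11), but on total counts it was lower in both comparisons (-0.23, adjusted p = 0.0257, and -0.27, adjusted p = 0.00708).

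Of 9 measured genes listed for the supply, transport and turnover of sulfate and PAPS, 3 rose against vehicle and 4 against pair-fed, and 0 fell. On total counts 2 rose (Cdo1 and Papss2) and 3 fell (Papss1, Bpnt1 and Bpnt2) in both comparisons. Bpnt1 and Bpnt2 act after sulfate transfer and do not make PAPS. Cdo1, cysteine dioxygenase, the first step from cysteine towards sulfate, was at 23520 to 31480 normalized counts in vehicle, 22270 to 31990 in pair-fed and 35980 to 41710 in GDF15 liver, with no overlap of GDF15 with either. Cdo1 rose by 0.52 ± 0.08 (adjusted p = 6.82e-09) and by 0.53 ± 0.08 (adjusted p = 6.87e-09). Papss2, the PAPS synthase of liver, ran from 2506 to 3306, 1604 to 3773 and 3381 to 4772, and rose by 0.53 ± 0.15 (adjusted p = 0.00220) and by 0.56 ± 0.15 (adjusted p = 0.00124). Slc26a1, a sulfate carrier, rose by 0.31 ± 0.07 and by 0.23 ± 0.07, and Suox, which oxidizes sulfite to sulfate, rose against pair-fed by 0.26 ± 0.08 (adjusted p = 0.00709). Neither Slc26a1 nor Suox was called on total counts. Papss1 (-0.24 and -0.20), Slc35b2 (0.08 and 0.10), Slc35b3 (0.04 and 0.03), Bpnt1 (-0.00 and 0.04) and Bpnt2 (-0.07 and -0.02) were not called with median-of-ratios scaling. On total counts Papss1 was at -0.42 and -0.38, Bpnt1 at -0.18 and -0.13 and Bpnt2 at -0.24 and -0.18.

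**Figure D4:**
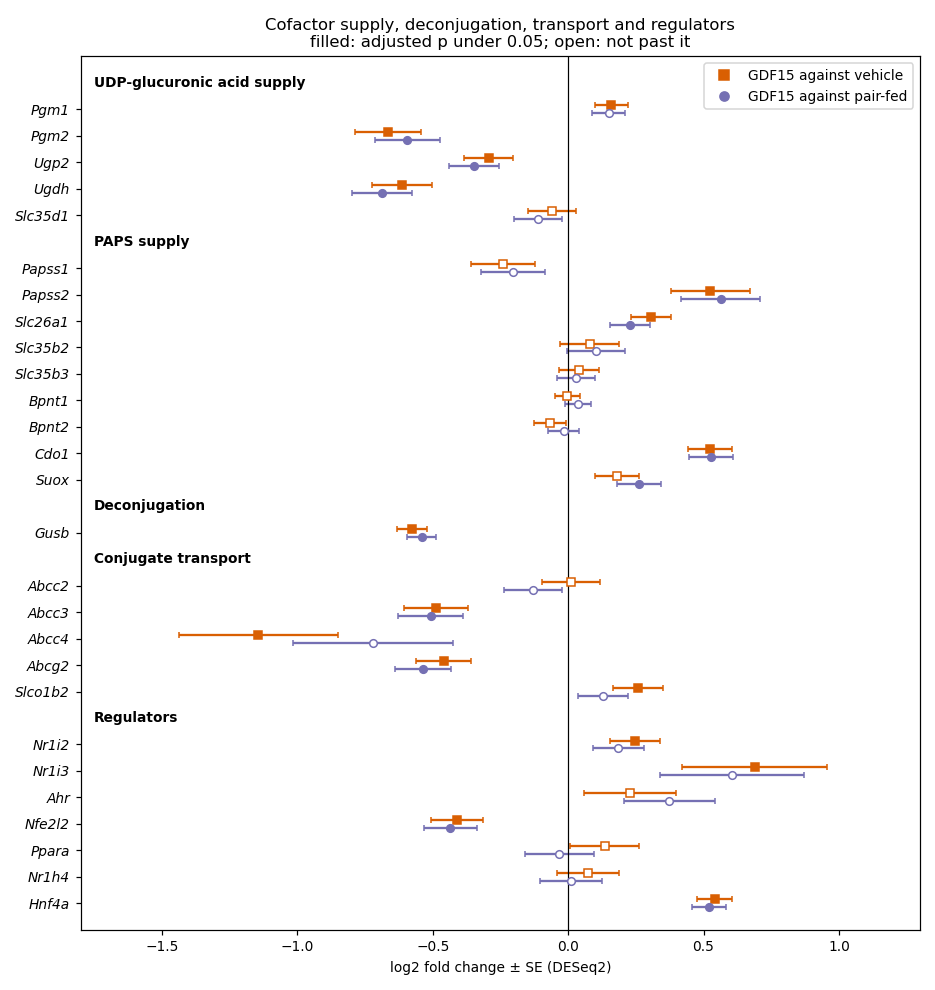
log2 fold change ± SE from DESeq2 for genes listed under donor supply, deconjugation, conjugate transport and regulation, in GDF15 against vehicle (squares) and against pair-fed (circles). Filled symbols passed an adjusted p of 0.05. Ugdh, Ugp2 and Pgm2 lie to the left of 0 and Cdo1, Papss2 and Slc26a1 to the right in both comparisons.

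Gusb, the lysosomal enzyme that removes glucuronic acid, ran from 862 to 939 normalized counts in vehicle, 822 to 979 in pair-fed and 572 to 672 in GDF15 liver, below both other groups without overlap. It fell by 0.58 ± 0.06 (adjusted p = 1.42e-22) and by 0.54 ± 0.05 (adjusted p = 6.69e-20) on the log2 scale. Of the 5 transporters, 3 fell against vehicle and 2 against pair-fed. Abcc3, which returns glucuronides from the hepatocyte to blood, fell by 0.49 ± 0.12 and by 0.51 ± 0.12 (adjusted p = 0.000375 and 0.000268). Abcg2, a canalicular exporter of sulfate conjugates among others, fell by 0.46 ± 0.10 and by 0.54 ± 0.10 (adjusted p = 8.21e-05 and 4.50e-06). Abcc4 fell against vehicle by 1.14 ± 0.29 (adjusted p = 0.000739) at a mean of 59.9 normalized counts. Abcc2, the canalicular exporter of bilirubin glucuronide, was not called (0.01 and -0.13), but was lower against pair-fed on total counts (-0.29, adjusted p = 0.0329). Slco1b2, an uptake carrier with the highest mean count of the list, was higher against vehicle (0.26 ± 0.09, adjusted p = 0.0193) but not called on total counts (0.10, adjusted p = 0.413).

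Of 13 other UGTs with a row, 2 rose and 2 fell against vehicle, and 1 rose and 2 fell against pair-fed. Ugt2b35, another gene of the Ugt2b family, ran from 3354 to 4081 normalized counts in vehicle, 3328 to 5112 in pair-fed and 2474 to 3780 in GDF15 liver, and fell by 0.43 ± 0.11 (adjusted p = 0.000526) and by 0.61 ± 0.11 (adjusted p = 8.72e-07). Ugt3a2, the closest relative of Ugt3a1 in shared words and the gene with the highest mean count of this list, rose by 0.24 ± 0.08 and by 0.22 ± 0.08 (adjusted p = 0.00756 and 0.0195). Neither call on Ugt3a2 held on total counts (0.08 and 0.06). Ugt1a5 was also higher against vehicle (0.47 ± 0.19, adjusted p = 0.0447), a call lost on total counts (0.30, adjusted p = 0.162), and Ugt8a was lower (-1.73 ± 0.56, adjusted p = 0.00856) at a mean of only 7.67 normalized counts.

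Of 11 other SULTs with a row, 2 rose against vehicle and 1 against pair-fed, and 0 fell in either. Sult5a1 ran from 31.6 to 87.7 normalized counts in vehicle, 42.0 to 119.8 in pair-fed and 86.1 to 183.2 in GDF15 liver, and rose by 1.31 ± 0.28 (adjusted p = 4.41e-05) and by 0.75 ± 0.28 (adjusted p = 0.0283, and 0.0596 on total counts). Sult2a7, a relative of Sult2a8, rose against vehicle by 1.17 ± 0.34 (adjusted p = 0.00309) at a mean of 33.3. Sult1b1, a thyroid hormone sulfotransferase with the highest mean count of this list, was not called (0.18 and 0.05). Sult2a1, Sult2a2 and Sult2a3 had means of 0.307, 1.14 and 0.272 normalized counts, so nearly all Sult2a counts of these male livers were those of Sult2a8.

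Among the transcription factors known to act on these genes, 4 of 8 rose and 1 fell against vehicle, and 2 rose and 1 fell against pair-fed. Hnf4a, which maintains hepatocyte identity and is also on the list of hepatocyte markers, ran from 8613 to 11190 normalized counts in vehicle, 9048 to 10380 in pair-fed and 12800 to 15220 in GDF15 liver, and rose by 0.54 ± 0.06 (adjusted p = 3.93e-15) and by 0.52 ± 0.06 (adjusted p = 7.67e-14). Nfe2l2, the antioxidant factor NRF2, fell by 0.41 ± 0.10 (adjusted p = 0.000241) and by 0.44 ± 0.10 (adjusted p = 0.000122). The xenobiotic receptors Nr1i2 (PXR) and Nr1i3 (CAR) were higher against vehicle (0.25 ± 0.09, adjusted p = 0.0267, and 0.69 ± 0.27, adjusted p = 0.0329), and neither was called on total counts. Ahr, Ppara and Nr1h4 were not called in either comparison.

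Markers of cell types moved with these results, and their part in them was not tested. Of 5 measured hepatocyte markers, 4 rose against vehicle and 4 against pair-fed, and their sum was 1350000 to 1721000 normalized counts in vehicle, 1208000 to 1911000 in pair-fed and 1901000 to 2232000 in GDF15 liver. All 6 stellate cell or fibroblast markers fell against vehicle and 5 of 6 against pair-fed, with sums of 4657 to 8989, 4068 to 6815 and 2032 to 2969 in the same order. Macrophage markers fell in 5 of 6 and 4 of 6, with sums of 4192 to 8432, 4092 to 6698 and 2755 to 5602. Cholangiocyte markers fell in 5 of 5 and 1 of 5 (Spp1), with sums of 2364 to 8622, 2152 to 6000 and 1027 to 2087. Most of the mean sum in each group was Spp1, with means of 4867, 3145 and 1227 in the same order. Krt7, Krt19, Epcam and Sox9 were not called against pair-fed, where GDF15 and pair-fed livers overlapped for each. Of 4 other leukocyte markers, 1 fell against vehicle and 2 against pair-fed, at sums of 207 to 386, 223 to 345 and 124 to 240. Of 5 endothelial markers, 1 rose against vehicle, at sums of 2521 to 3397, 2852 to 3723 and 1975 to 3633. The 1 measured intestinal marker, Fabp2, was at 2805 to 3426, 2562 to 3057 and 1712 to 2709. Every marker with a row had counts in every group.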

How the data were processed

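The authors prepared strand-specific libraries from liver RNA (NEBNext Ultra II Directional), and per the labels used Trim Galore, Salmon and DESeq2 with the mm10 build; versions and the transcript set are not given in the sources used here. The deposited table holds estimated counts per gene, already rounded to whole numbers, for 16245 genes in 18 libraries (groups from the sample titles, 6 mice each). Totals were 18059478 to 23215915 counts in vehicle, 17180057 to 35301853 in pair-fed and 16508864 to 25001486 in GDF15 liver. No column of per-sample values was left out.

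All genes were fitted together with DESeq2 1.42.0 (R 4.3.3, group as the only term, median-of-ratios scaling, Wald test, unshrunken fold changes, independent filtering), after the test named by the authors. Adjusted p-values are Benjamini-Hochberg over all genes of a comparison, and a gene was called under 0.05. The study's stricter rule, an absolute log2 fold change above 1 as well, was given as a second rule. Intervals of 95% are the fold change ± 1.96 SE. edgeR 4.0.16 (quasi-likelihood), other scalings, filters, a replicate block, subsets of replicates and leaving out each library were alternatives. The fits were tested on simulated counts, in which far fewer genes changed than were called here against vehicle. The share of false calls there was above the nominal threshold with DESeq2 and nearer to it with edgeR. Calls close to the threshold are therefore less certain than their adjusted p. The 10 genes, the lists and the tests were chosen with earlier results of these data known, so counts over them are descriptions. Each title is taken as 1 mouse, and p-values weigh group differences against the spread between these mice. In the main fit all groups share 1 estimate of that spread for each gene.

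Named genes outside the 10 were, by rule, the most abundant gene of each list, 12 genes of at least 50 mean normalized counts called in both GDF15 comparisons with the largest log2 fold change against vehicle, and for each member the 2 genes most like it. Some genes that this rule names are not reported here. The remaining called genes, and uncalled ones of short lists, were named after their values were seen. Level per length used the longest coding GENCODE M21 transcript, shared words were 31 bases long, and start-site sequences came from RefSeq (GRCm38.p6), matched by symbol for 10 of 10 genes.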

Additional observations from a re-analysis of the deposited data

How the results depend on the processing

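Of 1050 recomputed values, 971 kept their direction and their side of the threshold (counts within 1.5 times). edgeR, TMM scaling, the filter on low counts, no independent filtering and fits of the 12 libraries compared left every count of calls within 1.5 times of 7, 5 and 0 members and 23, 17 and 0 list genes. Members called against vehicle became 4 on total counts, 4 with replicates 4 to 6 alone and 1 by the stricter rule, and against pair-fed 0 by the stricter rule. List genes became 14 and 9 with replicates 4 to 6 alone, and 4 and 0 by the stricter rule, against vehicle and pair-fed. Pair-fed against vehicle gave 1 member (Sult2a8) with replicates 4 to 6 alone. Leaving out 1 library gave 7 members against vehicle in each case, and 3 (without pair-fed replicate 2) to 6 against pair-fed, with list genes at 19 to 24 and 15 to 23. The cause of these moves was not tested, beyond the smaller number of mice in the subsets.

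No called value of the 10 genes or of the summed families changed sign in these settings. Uncalled log2 fold changes did. On total counts, Ugt2b5 (-0.074), Ugt2b36 (-0.058) and the summed Ugt2b rows (-0.075) turned against vehicle, and Ugt2b1 (-0.062), Ugt2b36 (-0.15) and the summed Ugt1a rows (-0.053) against pair-fed. With replicates 1 to 3 alone Ugt2b34 (0.025) and Ugt2b36 (-0.024) turned against pair-fed, and with replicates 4 to 6 alone Ugt2b5 (0.048) and the summed Ugt1a rows (-0.070). Sult1a1 in pair-fed against vehicle was -0.0045 with edgeR, -0.0017 with TMM scaling, -0.0084 on total counts, -0.00027 with the filter, -0.0018 with the replicate block and -0.077 with replicates 1 to 3 alone, where the summed Sult1 rows were -0.013, and Sult1d1 was -0.070 with replicates 4 to 6 alone. Leaving out 1 library, the ranges that crossed 0 were -0.0064 to 0.16 for Ugt2b5 against vehicle, -0.0077 to 0.20 for Ugt2b1, -0.046 to 0.030 for Ugt2b34 and -0.038 to 0.049 for Ugt2b36 against pair-fed, and -0.094 to 0.0086 for Ugt3a1, -0.060 to 0.062 for Sult1a1 and -0.019 to 0.14 for Sult1d1 in pair-fed against vehicle.

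The replicate numbers were not taken as pairs, since the labels give no shared origin and the check was mixed: correlations of same-numbered livers' deviations were above 0.1 in 2, 3 and 4 of 6 pairs (GDF15 with vehicle, GDF15 with pair-fed, pair-fed with vehicle), the last all above 0 (0.0435 to 0.60), and 1, 3 and 3 of 12 livers correlated best with their own number. The replicate block gave 7, 6 and 0 members called and 22, 17 and 0 list genes, adding Ugt2a3 against pair-fed (0.31, adjusted p = 0.0405).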
